A study of Mus musculus with 16 samples.

Results

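The genes described here act in G2 and mitosis, the stages in which a cell that has copied its DNA prepares to divide, separates its chromosomes and splits. They are 45 genes taken by symbol from a list of cyclins, kinases, checkpoint proteins, kinetochore and spindle proteins and condensins. All 45 were found among 38918 features and kept because each reached at least 1 CPM (exon reads of the gene scaled to 1000000 exon reads of the library) in some library, as 11122 features did. RNA was sequenced from pre-B cells of Blnk-/- mice. All groups carried a retroviral BLNK-ERt2 fusion, whose oestrogen receptor part makes it depend on tamoxifen, and all lacked the cells' own BLNK, the adaptor that links the pre-B cell receptor to its enzymes. Stimulation lasted 0.5, 1.5 or 5 h in 3 groups and was left out in the control group, and the study asked which genes answer to receptor signalling. Whether control cells received the drug's vehicle is not stated, and neither is the number of clones or animals behind the culture.

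Cells enter mitosis when cyclin B and CDK1 form an active kinase, which CDC25 phosphatases release from inhibition and Polo and Aurora kinases reinforce. The spindle checkpoint holds the anaphase-promoting complex in check until every chromosome is attached, after which the complex marks securin and cyclin B for destruction. The RNAs of these proteins accumulate in G2, and large pre-B cells are a dividing stage of B cell development.

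Many promoters of such genes hold CCAAT boxes, bound by NF-Y, and the letters TTTGAA, known as the cell cycle genes homology region, to which the DREAM and B-MYB complexes bind. Promoter windows of 250 bases before to 50 after the annotated start (RefSeq, build GRCm38.p6) were available for 37 of the 45 genes, as 39 windows. The windows of Ccnb2, Ccnb1, Cdc25b and Plk1 are shown because they are the promoters of members described in full below that start the G2 to mitosis switch. Capitals mark TTTGAA and CCAAT, and ATTGG in capitals is CCAAT on the other strand.

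Ccnb2, chr9:70421505-70421804, minus strand, with TTTGAA at -167 and 5 and CCAAT at -87, -54 and -21 from the start.
Ccnb2: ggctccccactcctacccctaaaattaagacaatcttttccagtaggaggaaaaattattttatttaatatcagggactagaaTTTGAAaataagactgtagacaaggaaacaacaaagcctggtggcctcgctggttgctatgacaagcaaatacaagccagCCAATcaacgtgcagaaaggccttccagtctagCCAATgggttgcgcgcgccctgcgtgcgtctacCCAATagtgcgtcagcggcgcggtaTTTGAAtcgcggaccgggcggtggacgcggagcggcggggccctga
Plk1, chr7:122159185-122159484, plus strand, with CCAAT at -14 and TTTGAA at 31.
Plk1: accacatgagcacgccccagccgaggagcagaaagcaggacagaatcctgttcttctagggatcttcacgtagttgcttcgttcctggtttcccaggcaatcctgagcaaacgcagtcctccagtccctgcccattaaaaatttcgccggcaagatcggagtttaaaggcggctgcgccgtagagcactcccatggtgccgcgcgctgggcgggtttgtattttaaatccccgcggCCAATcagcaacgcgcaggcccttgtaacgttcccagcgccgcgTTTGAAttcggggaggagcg
Ccnb1, chr13:100786437-100786736, minus strand, with CCAAT at -99 and -67.
Ccnb1: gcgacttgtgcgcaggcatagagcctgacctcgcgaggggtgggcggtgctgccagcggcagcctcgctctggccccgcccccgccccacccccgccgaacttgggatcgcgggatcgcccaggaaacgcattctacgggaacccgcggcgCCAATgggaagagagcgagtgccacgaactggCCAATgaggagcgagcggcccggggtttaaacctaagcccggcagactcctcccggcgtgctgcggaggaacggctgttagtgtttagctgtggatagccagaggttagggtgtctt
Cdc25b, chr2:131186698-131186997, plus strand, with CCAAT on the other strand at -28.
Cdc25b: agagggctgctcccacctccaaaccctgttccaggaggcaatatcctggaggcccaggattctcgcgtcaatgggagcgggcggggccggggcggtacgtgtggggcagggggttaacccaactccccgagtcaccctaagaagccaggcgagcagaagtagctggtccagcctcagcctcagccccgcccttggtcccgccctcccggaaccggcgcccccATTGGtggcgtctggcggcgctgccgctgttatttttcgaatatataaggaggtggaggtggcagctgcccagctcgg

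Across the 39 windows, TTTGAA on either strand was in 26 (66.7%), against 17.9% of all 32851 windows. CCAAT on either strand was in 29 (74.4%), against 37.4%. At least 2 copies of CCAAT were in 19 windows (48.7%), against 11.7%, and both motifs together were in 23 (59.0%), against 6.95%. The E2F core TTCCCGC, typical of S phase genes, was in 1 window (2.56%), against 4.60% of all windows. Both strands were searched, and copies that overlap were counted separately. These matches describe the letters and say nothing of whether a factor was bound.

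The 4 libraries held 30746189 to 34533362 total exon reads, each the sum of 4 lanes that carry 1 index sequence, so each condition is 1 library and no test between conditions was possible. Intervals beside folds are exact Clopper-Pearson 95% intervals and cover counting error only. In total exon reads, lanes of 1 library differed by more than counting error (chi-square per degree of freedom 1.24 to 1.32). The intervals leave this excess out. B lineage markers summed to 16239 CPM in the control and 13912 CPM at 5 h. The list includes Blnk, with 3516 and 3533 CPM, which is part of the retroviral fusion and so is no sign of lineage here. Pax5 was higher at 5 h (396 against 290 CPM), and the other B lineage markers found were lower. Of markers of other cells, the T and NK list summed to 14.0 to 20.1 CPM, nearly all Klrb1c, with Cd4 and Ncr1 at 0. The myeloid list summed to 72.4 CPM in the control and 38.4 CPM at 5 h, mostly Itgam, with Ly6g at 0. Erythroid, megakaryocyte and stromal lists each summed to under 4 CPM. The part of these cells in the values that follow was not tested. In bulk RNA, fewer cells in mitosis and less mitotic RNA per cell cannot be told apart.

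In unstimulated cells the 45 genes were well expressed. On the scale of CPM per kb of exon, the control levels ran from 12.2 for Plk4 to 124 for Mki67, with a median of 39.8, against a median of 10.3 over all features from 1 CPM. After Mki67, which coats mitotic chromosomes and is the usual marker of cycling cells, the next levels per kb were those of Ccnb2 at 109.9, Top2a at 107, Cdc20 at 95.9 and Incenp at 93.6. The summed level of all 45 was 9113 CPM in the control, 9057 CPM at 0.5 h, 8646 CPM at 1.5 h and 8429 CPM at 5 h. Every gene had at least 5 CPM in every library.

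**Figure D1:**
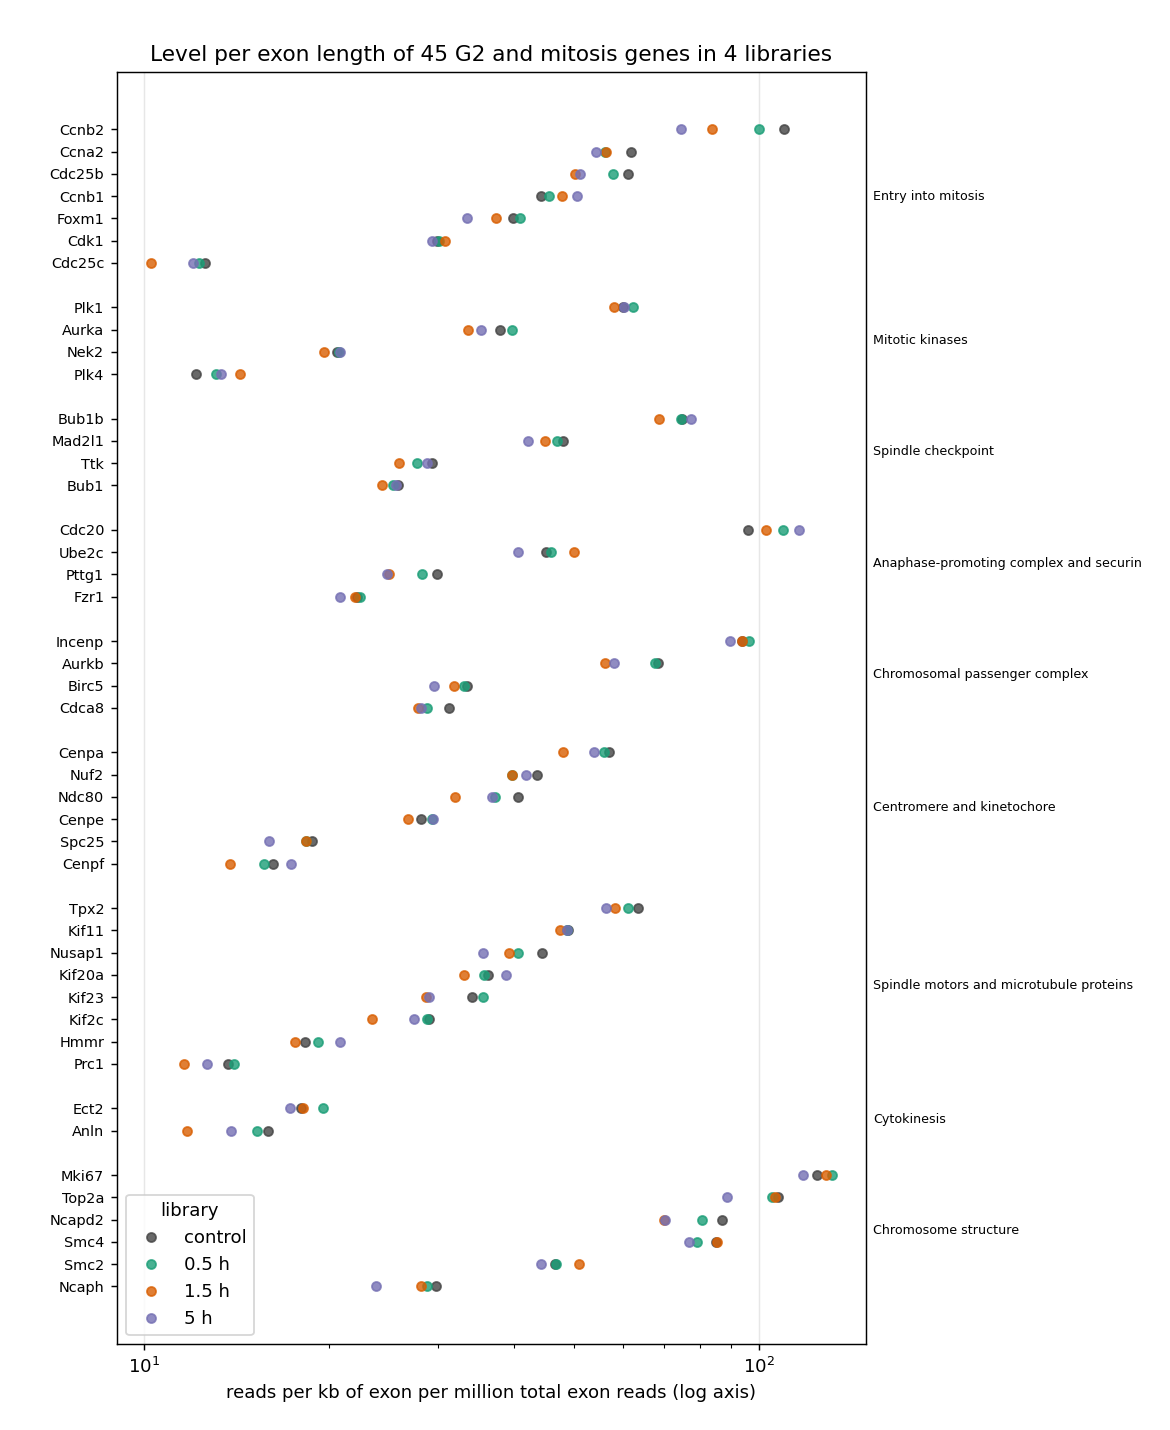
Level of each of the 45 genes as CPM per kb of exon (log axis) in the 4 libraries, 1 point per library, grouped by role. Most genes keep their 4 points close together, while Ccnb2 moves stepwise to lower levels from the control to 5 h.

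Exon reads of the 45 genes differed little between libraries. At 0.5 h the median log2 ratio to control (1 CPM added to both) was -0.02, against -0.00 over all features, and 27 of 45 ratios were below 0, as were 50.9% of those of all features. At that time 0 genes were 1.2-fold higher or lower, where 5.32% of all features were higher and 1.65% lower. At 1.5 h the median was -0.10 against -0.01, and 35 of 45 ratios were below 0, as were 52.7% of those of all features. At 5 h it was -0.09 against -0.00, again with 35 of 45 below 0, against 50.8% of all features. No gene was 1.5-fold higher or lower than control at any time. Of all features, 0.673% were 1.5-fold higher and 0.147% lower at 0.5 h, 3.37% and 1.99% at 1.5 h, and 2.21% and 2.98% at 5 h.

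The genes 1.2-fold lower at 1.5 h were 8 of 45 (17.8%), against 13.2% of all features: Ccnb2, Cdc25b, Cdc25c, Aurkb, Ndc80, Kif2c, Anln and Ncapd2. None was 1.2-fold higher, against 14.5%. With TMM scaling the lower count was 5. At 5 h 6 genes (13.3%) were lower, against 16.3% of all features: Ccnb2, Pttg1, Nusap1, Top2a, Ncapd2 and Ncaph. Cdc20 alone was higher, against 14.9% of all features. Between successive times, 5 genes were lower at 1.5 h than at 0.5 h and 0 higher, against 11.5% and 10.4% of all features. Ube2c was lower and Cenpf higher at 5 h than at 1.5 h, against 12% and 10.3%. The lower counts lie near the background and are not a result about these genes. The control library held the highest of the 4 levels for 23 of 45 genes, against 26.9% of all features.

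**Figure D2:**
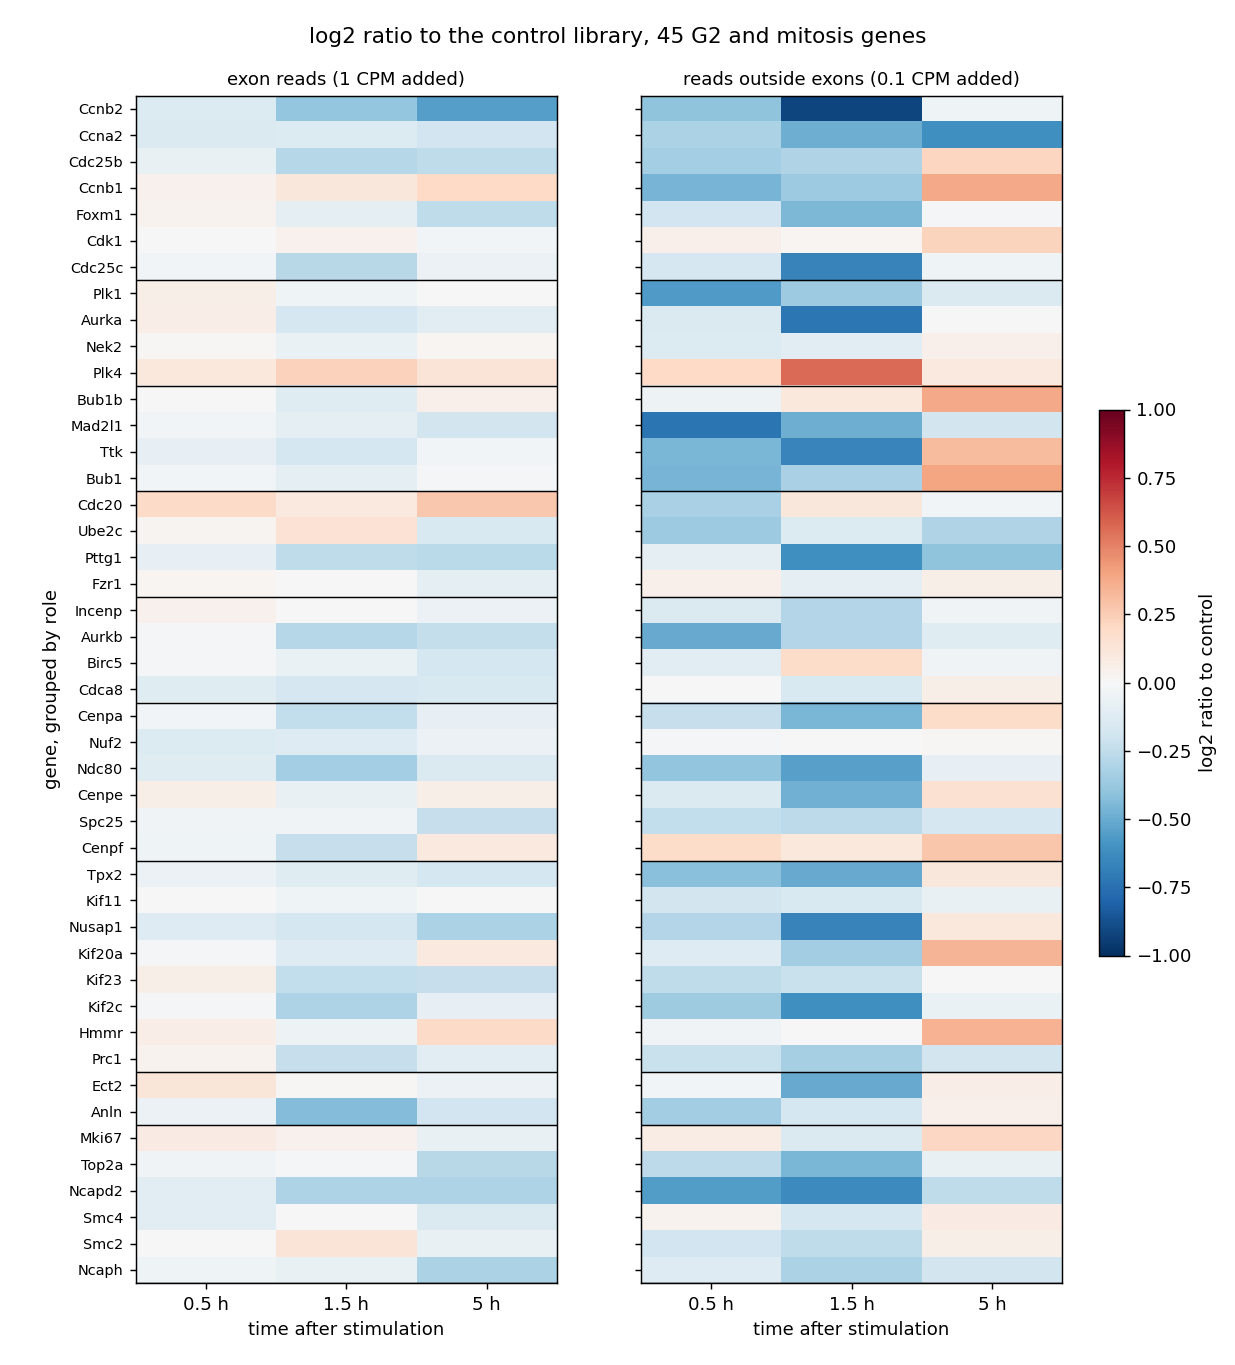
log2 ratio to the control library for each gene, by role, in exon reads (left, 1 CPM added) and in reads outside exons (right, 0.1 CPM added); blue is lower and red is higher than control. The exon panel is pale, and the panel of reads outside exons is blue for 38 of 45 genes at 0.5 h and 37 at 1.5 h, and about evenly split at 5 h.

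Among genes that drive entry into mitosis, cyclin B2 stood lowest against its control. Ccnb2 (chr9:70407689-70421554 of mm10), a regulatory partner of CDK1 and a gene with both motifs shown above, had 169 CPM in the control, 154 at 0.5 h, 129 at 1.5 h and 115 at 5 h. It was lower at each step. The control exceeded the 1.5 h level 1.31-fold (1.26 to 1.36) and the 5 h level 1.47-fold (1.41 to 1.53). This is the largest ratio among the 45 genes in either direction. Cdc25b, a phosphatase that activates CDK1, had 228, 216, 187 and 191 CPM in the same order. It was 1.22-fold lower at 1.5 h (1.18 to 1.26), and at 5 h 1.19-fold lower (1.15 to 1.23).

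Cyclin B1 moved the other way. Ccnb1 had 186, 192, 201 and 214 CPM, lowest in the control and 1.15-fold higher at 5 h (1.11 to 1.19). Only 40.8% of its exon reads were uniquely placed, so part of its count may belong to near-identical copies. In uniquely placed reads it had 90.9, 89.6, 100.4 and 103 CPM. Of the other members of the group, Cdk1, the kinase itself, ranged from 101.2 to 106 CPM over the 4 libraries. Cdc25c, the second CDC25 phosphatase here, had 24.4 CPM in the control, 19.9 at 1.5 h and 23.3 at 5 h, and Foxm1, a transcription factor of G2 genes, had 219 CPM in the control and 184 at 5 h. Ccna2, cyclin A2, had 217 CPM in the control and 190.2 at 5 h.

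Of the genes grouped here as mitotic kinases, Plk1, Aurka, Plk4 and Nek2, none was 1.2-fold higher or lower in exon reads at any time. Aurkb is described with the chromosomal passenger complex. Plk1, which acts in mitotic entry, spindle assembly and cytokinesis, had 132, 138, 128 and 133 CPM. Aurka, a spindle pole kinase, had 95.9, 100.3, 85.1 and 89.3 CPM, 1.13-fold lower at 1.5 h (1.07 to 1.19). Plk4, which starts the duplication of centrioles, was lowest in the control. Its levels were 71.3, 76.7, 84.1 and 78.3 CPM, and it was 1.18-fold higher at 1.5 h (1.12 to 1.25). Nek2, a centrosome kinase, ranged from 88.6 to 94.1 CPM.

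The spindle checkpoint genes were nearly level in exon reads. Bub1b, which encodes the checkpoint protein BUBR1, had 319.8, 319, 294 and 332 CPM. Mad2l1, whose product MAD2 binds CDC20, had 106, 103, 98.8 and 92.8 CPM, lower at each step and 1.14-fold lower at 5 h (1.08 to 1.2). Ttk, the MPS1 kinase that starts the checkpoint, had 85.4, 80.7, 75.5 and 83.8 CPM, lowest at 1.5 h. Bub1, a kinase at the kinetochore, ranged from 106 to 113 CPM.

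In the group of the anaphase-promoting complex and securin, Cdc20 and Pttg1 differed in direction. The cyclin B genes, whose products the complex also marks, were split at 5 h, with Ccnb1 higher and Ccnb2 lower than control. Cdc20, the mitotic activator, had 179, 204, 192 and 216 CPM, lowest in the control and 1.21-fold higher at 5 h (1.17 to 1.25). It lies just past the 1.2-fold limit, and it fell short of it with lane 3 left out and in total gene reads. Pttg1, which encodes securin, had 59.9, 56.6, 50.04 and 49.6 CPM, 1.21-fold lower at 5 h (1.13 to 1.29). Fzr1, the activator after mitosis, ranged from 93.4 to 100.7 CPM, and Ube2c, the ubiquitin-conjugating enzyme that works with the complex, from 105 to 129.8 CPM.

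In the chromosomal passenger complex, which corrects faulty attachments, Incenp, its scaffold, had 301, 309.8, 301 and 289 CPM. Aurkb, its kinase, had 202, 199.7, 166 and 171 CPM, 1.22-fold lower at 1.5 h (1.17 to 1.26). Birc5, which encodes survivin, had 114, 113, 109 and 100.7 CPM, lower at each step. All 4 genes of the complex, Cdca8 included, were below control at 5 h, as were 50.8% of all features. The median log2 ratio of the 4 was -0.16.

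At the centromere and kinetochore, all 6 genes were below control at 1.5 h in exon reads, as were 52.7% of all features. The median log2 ratio of the 6 was -0.18, and the interval of Spc25 included 1 (1.02-fold lower, 0.961 to 1.09). Cenpa, the histone H3 variant that marks centromeres, had 143, 140.2, 120.2 and 135 CPM. Ndc80, which holds microtubule ends, had 89.4, 82.0, 70.5 and 80.9 CPM, 1.27-fold lower at 1.5 h (1.2 to 1.34) and nearer the control at 5 h. Cenpf, a large kinetochore protein, had 184 CPM in the control, 156 at 1.5 h and 197 at 5 h, so its 1.5 h level was the lowest and its 5 h level the highest. Nuf2 and Spc25, partners of NDC80, and Cenpe, a kinetochore motor, differed by less than 1.2-fold.

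The 8 spindle motor and microtubule genes were all below control at 1.5 h in exon reads, as were 52.7% of all features. The median log2 ratio of the 8 was -0.15, and the intervals of Kif11 and Hmmr at 1.5 h included 1. Tpx2, which activates Aurora A at the spindle, had 297, 286, 273 and 264 CPM, lower at each step. Nusap1, a microtubule-bundling protein, had 180.1, 165, 159 and 145 CPM, also lower at each step and 1.25-fold lower at 5 h (1.2 to 1.29). Kif2c, a kinesin that takes microtubules apart at their ends, dipped at 1.5 h instead. It had 127, 126, 102 and 119.7 CPM, 1.24-fold lower at 1.5 h (1.18 to 1.30). Kif20a, a kinesin of the spindle midzone with 77.7% uniquely placed reads, had 138, 135, 126 and 147 CPM. Hmmr, a microtubule-binding protein, was highest at 5 h at 113 CPM, against 99.1 CPM in the control. Kif11, the motor that pushes spindle poles apart, stayed between 229 and 236 CPM. Kif23 and Prc1, midzone proteins, had 117 and 113 CPM in the control and 98.4 and 95.6 CPM at 1.5 h.

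Of the genes of cytokinesis, Anln, which encodes the cleavage furrow protein anillin, had 86.1, 82.8, 63.6 and 75.1 CPM. Its 1.5 h level was 1.35-fold lower (1.28 to 1.43), the largest ratio among the 45 genes at that time. Ect2, which activates RhoA at the furrow, had 93.6, 102, 94.1 and 89.9 CPM.

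Among genes of chromosome structure, condensin subunits differed from one another. Ncapd2 and Ncaph belong to condensin I, and Ncapd2 had 394, 365, 317 and 318 CPM, 1.24-fold lower at 1.5 h and also at 5 h (both 1.21 to 1.27). Ncaph had 128, 124, 122 and 103 CPM, lower at each step and 1.25-fold lower at 5 h (1.19 to 1.31). Smc2 and Smc4, the subunits that both condensins share, differed less: Smc2 had 279 CPM at 1.5 h and 242 CPM at 5 h, and Smc4 ranged from 387 to 430.1 CPM. Mki67 had 1251, 1322, 1293 and 1189 CPM, and Top2a, which untangles sister DNA, had 968, 946, 958 and 798 CPM, near level to 1.5 h and 1.21-fold lower at 5 h (1.19 to 1.23).

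In all, 7 genes were lower at each successive time, namely Ccnb2, Mad2l1, Pttg1, Birc5, Tpx2, Nusap1 and Ncaph, a share near the 11% of all features. The lowest of the 4 exon levels was at 1.5 h for 22 genes and at 5 h for 19, against 23.7% and 31.3% of all features.

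Reads outside exons, taken as total gene reads minus total exon reads and scaled by total exon reads, showed a larger and different pattern. These reads lie in a gene's span but not in its annotated exons, as reads from introns of unspliced RNA do. Which RNA they came from was not tested. They summed to 787 CPM over the 45 genes in the control, 677 at 0.5 h, 628 at 1.5 h and 808 at 5 h, from 20508 to 27167 reads. At 0.5 h the median log2 ratio to control (0.1 CPM added) was -0.19, against 0.01 over all 10028 features with at least 50 such reads, and 38 of 45 genes were below 0, as were 48.9% of all features. At 1.5 h it was -0.31 against 0.07, with 37 of 45 below 0, against 42.0% of all features. At 5 h it was 0.01 against 0.16, with 22 of 45 below 0, against 26.9% of all features.

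By 1.2-fold, reads outside exons were lower at 0.5 h for 17 genes (37.8%), against 13.8% of all features. At 1.5 h they were lower for 27 genes (60.0%), against 19.1%, and higher for Plk4 alone, against 31.1% of all features. By 1.5-fold, 8 genes (17.8%) were lower at 1.5 h, against 6.04%: Ccnb2, Cdc25c, Aurka, Ttk, Pttg1, Kif2c, Nusap1 and Ncapd2. At 5 h they were lower for 3 genes, against 8.76%, and higher for 7 genes, against 35.1%. From 1.5 to 5 h they were higher for 23 genes (51.1%), against 28.8% of all features, and lower for Plk4 alone, against 17.4%, with a median log2 ratio of 0.27 against 0.07. From 0.5 to 1.5 h they were lower for 7 genes, against 17.2%, and higher for Birc5, Cdc20 and Plk4, against 27% of all features. Being lower at 1.5 h than in the control and higher at 5 h than at 1.5 h held for 35 of 45 genes, against 36.0% of all features. In exon reads the same held for 23 genes, against 28.7%.

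The values at 5 h and those between successive times depended on scaling. Scaled by all reads outside exons, which made up 15.8 to 17.2% of gene reads, the median at 5 h was -0.12 against 0.03 over all features, so its sign turned. Then 33 of 45 genes were below 0 at 5 h, against 44.5% of all features, and 9 were 1.2-fold lower, against 15.4%. From 0.5 to 1.5 h 14 genes were lower, against 21.3%. The medians at 0.5 and 1.5 h were -0.18 against 0.01 and -0.36 against 0.02, and 38 and 40 genes were below 0, against 47.8 and 47.1%. Another feature with at least 1 CPM overlapped 8 of the genes, among them Cdc25b, Cdc20, Kif20a and Nusap1. The strand of counting is not stated, so reads of such neighbours may be included. The 37 genes without an overlap had medians of -0.19, -0.31 and -0.00.

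**Figure D3:**
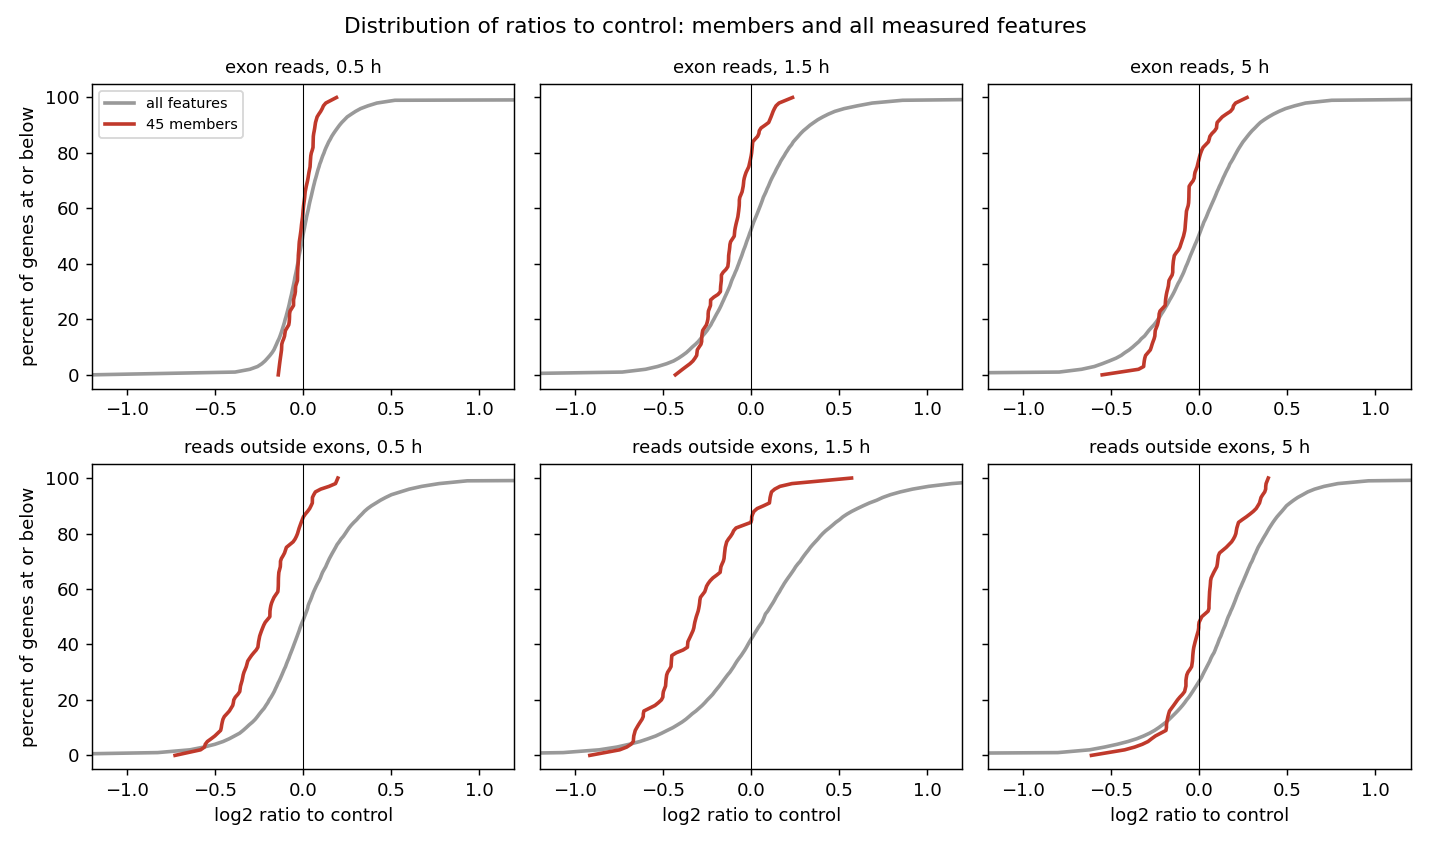
Percent of genes (y axis) at or below each log2 ratio to control (x axis) for the 45 genes (red) and for all features (grey), in exon reads above and in reads outside exons below. The red line lies left of the grey line at 0.5 and 1.5 h in reads outside exons, where the medians are -0.19 against 0.01 and -0.31 against 0.07. At 5 h the median of the 45 genes is also below that of all features, 0.01 against 0.16.

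Ccnb2 had the lowest ratio outside exons at 1.5 h. It had 15.4 CPM outside exons in the control, 11.6 at 0.5 h, 8.09 at 1.5 h and 15.0 at 5 h. This was 1.90-fold lower at 1.5 h (1.64 to 2.21). Scaled by total exon reads, the interval of its ratio to control at 5 h included 1 (1.03-fold lower, 0.905 to 1.17). The median log2 ratio over all features was then 0.16. Its exon reads were at their lowest at 5 h. By lane, the 1.5 h values of 7.75 to 8.44 CPM lay below the control lanes at 14.7 to 16.7 CPM, with no overlap, although lanes are reads of 1 library and not replicates of a condition.

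In further genes the level outside exons was also lowest at 1.5 h. Scaled by total exon reads, it was back near or above the control at 5 h. All features had a median log2 ratio of 0.16 at 5 h on this scale. Ttk had 23.3, 17.0, 14.7 and 29.1 CPM outside exons, 1.58-fold lower at 1.5 h (1.41 to 1.78) and 1.25-fold higher at 5 h (1.13 to 1.37). Nusap1 had 22.6, 18.4, 14.1 and 24.3 CPM, 1.60-fold lower at 1.5 h (1.42 to 1.8). Aurka had 9.03, 8.18, 5.42 and 9.01 CPM, 1.67-fold lower at 1.5 h (1.38 to 2.01). In Aurka, as in Cdc25c with 19.3, 17.1, 12.1 and 18.7 CPM, most of the difference came between 0.5 and 1.5 h. Cenpa, with many more such reads, had 57.9, 49.2, 42.2 and 65.9 CPM, 1.37-fold lower at 1.5 h (1.28 to 1.47).

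Of the genes above, Ccnb2, Ttk, Nusap1 and Cenpa were already lower at 0.5 h, with intervals that left out 1. Ttk was 1.37-fold lower then (1.23 to 1.53). Plk1, Aurkb and Ncapd2 were lower at 0.5 h too, with little or no further fall by 1.5 h. Plk1 had 4.72, 3.16, 3.65 and 4.26 CPM outside exons, 1.49-fold lower at 0.5 h (1.16 to 1.92). Aurkb, with 13.3, 9.33, 10.8 and 12.2 CPM, also had its lowest level at 0.5 h. Ncapd2 had 39.3, 26.7, 25.2 and 32.9 CPM, 1.47-fold lower at 0.5 h (1.35 to 1.60), and it was still 1.19-fold lower at 5 h (1.10 to 1.30). Mad2l1 had only 31 such reads in the control and 17 at 0.5 h, and the interval of its 1.79-fold ratio included 1 (0.960 to 3.44).

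The remaining genes named here had other courses outside exons. Plk4 was highest at 1.5 h outside exons as in exons, with 2.69, 3.10, 4.05 and 2.89 CPM, 1.50-fold higher at 1.5 h (1.14 to 1.98). Ccna2 was lower at each step, with 3.74, 2.98, 2.64 and 2.41 CPM, and Exosc9 overlaps it. Pttg1, with 4.84, 4.52, 3.13 and 3.64 CPM, stayed 1.33-fold below the control at 5 h (1.04 to 1.70). Nuf2 lay between 11.6 and 11.8 CPM in all 4 libraries. Kif11 had the most such reads of the 45 genes, 2826 in the control, and 81.8, 72.1, 73.6 and 77.6 CPM.

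**Figure D4:**
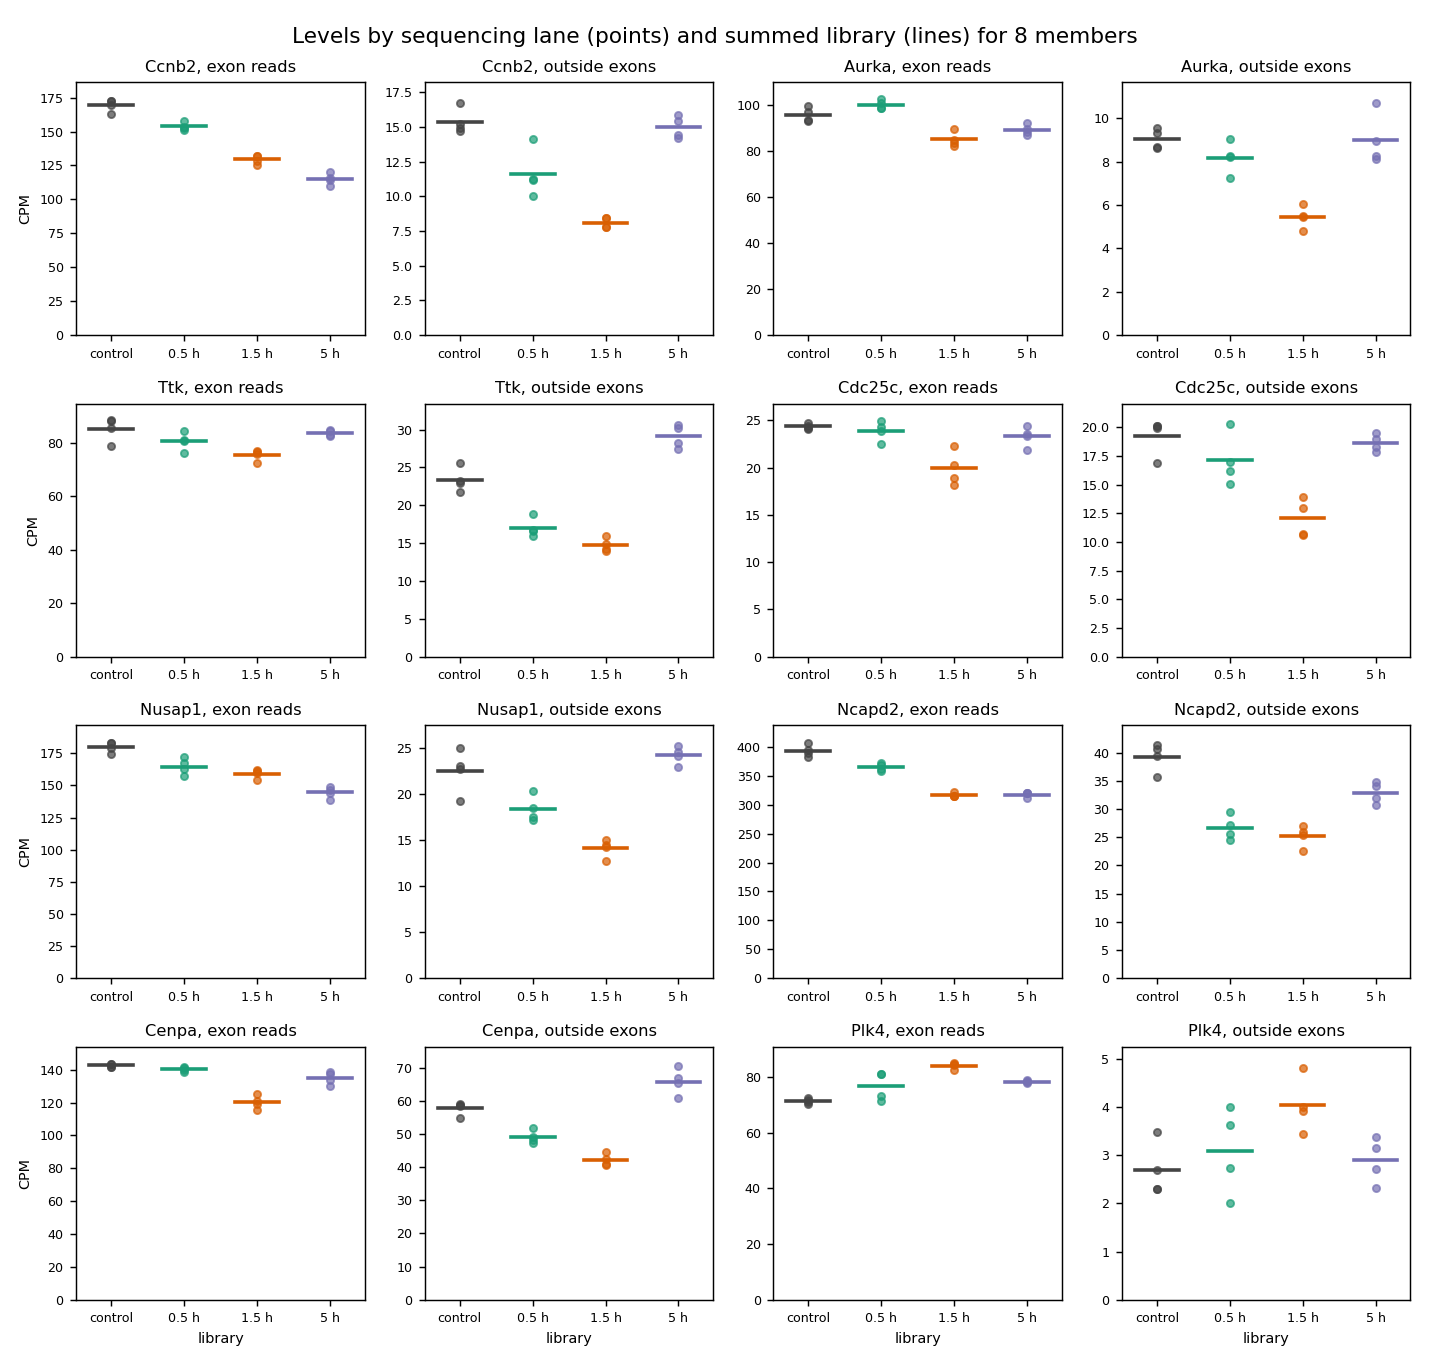
CPM (y axis, from 0) in exon reads and in reads outside exons for 8 genes in the control and at 0.5, 1.5 and 5 h; points are the 4 lanes of each library and lines the summed library. In Ccnb2, Aurka, Ttk, Cdc25c, Nusap1 and Cenpa the level outside exons is lowest at 1.5 h. Scaled by total exon reads, as drawn, it is close to or above the control at 5 h in these genes. In Ncapd2 it stays below the control, and in Plk4 it is highest at 1.5 h.

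By role, the median log2 ratio outside exons at 1.5 h was below 0 in all 9 groups. It was -0.45 for the 7 genes of entry into mitosis, -0.40 for the 4 checkpoint genes, -0.36 for the 6 kinetochore genes and -0.34 for the 8 spindle genes. It was nearest to 0, at -0.12, for the 4 genes of the anaphase-promoting complex and securin. Across the 45 genes, the ratio outside exons lay below the exon ratio for 38 at 0.5 h, 35 at 1.5 h and 8 at 5 h. Over all features it did so for 49.5, 38.8 and 25.2%. The correlation of the 2 ratios across the 45 genes was 0.20 (Pearson) at 0.5 h and 0.53 at 1.5 h. Over all 10028 features it was 0.40 and 0.66. These values describe genes that share libraries and depth.

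A wider list of 100 other G2 and mitosis genes, of which 96 reached 1 CPM, had exon medians of -0.00, -0.08 and -0.11 at 0.5, 1.5 and 5 h. Of these, 10 were 1.2-fold lower and 6 higher at 1.5 h (10.4% and 6.25%), against 13.2% and 14.5% of all features. At 5 h 17 were lower and 3 higher (17.7% and 3.12%), against 16.3% and 14.9%. The shares lower lie near or under the background. Outside exons their medians were -0.13, -0.12 and 0.09, against 0.01, 0.07 and 0.16 over all features. Below 0 were 73, 69 and 29 of 96 (76.0, 71.9 and 30.2%), against 48.9, 42.0 and 26.9% of all features, so the share at 5 h lies near the background.

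The genes named from the wider list are those with its largest ratios to control, 4 in each direction. Cenpm, a centromere protein, had 19.1, 18.9, 16.2 and 10.2 CPM, 1.87-fold lower at 5 h (1.63 to 2.14). Cdkn3, a phosphatase of cyclin-dependent kinases, had 10.2, 9.12, 8.34 and 6.15 CPM, and Melk, a mitotic kinase, had 41.2, 35.1, 36.3 and 26.6 CPM. Anapc13, a subunit of the anaphase-promoting complex, had 58.3 CPM in the control and 40.9 at 5 h. Another subunit of the same complex was higher instead: Anapc10 had 10.8, 11.8, 16.03 and 15.6 CPM, 1.48-fold higher at 1.5 h (1.30 to 1.70). Cdc25a, the CDC25 phosphatase that also acts at the start of S phase, had 71.6, 86.9, 95.2 and 64.4 CPM, 1.33-fold higher at 1.5 h (1.26 to 1.4) and below the control at 5 h. Kif18a, a kinesin that aligns chromosomes, had 29.9, 31.2, 40.3 and 37.0 CPM. Ube2s, which extends ubiquitin chains for the same complex, had 47.4, 63.1, 79.3 and 51.4 CPM, but only 19.6% of its reads were uniquely placed.

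For comparison, 37 S phase genes had exon medians of 0.02, -0.04 and -0.22, and 15 of them (40.5%) were 1.2-fold lower at 5 h, against 6 of the 45 (13.3%) and 16.3% of all features. Outside exons the 35 S phase genes with enough reads had medians of -0.01, -0.16 and 0.04. Below 0 were 19, 28 and 15 of 35 (54.3, 80.0 and 42.9%), against 48.9, 42.0 and 26.9% of all features. At 1.5 h this share is near that of the 45 genes (82.2%), so being below 0 then is not particular to them. The difference between both sets was not tested, since genes are not replicates of a condition and there is 1 library per time.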

How the data were processed

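RNA of Blnk-/- pre-B cells with BLNK-ERt2 was selected for poly(A) and sequenced on an Illumina HiSeq, per the labels. The deposited tables hold counts of total and unique exon reads and of gene reads per lane, not normalized, per the file headers. CASAVA 1.8.2 and mm10 are named in the submitters' processing notes; aligner and counter: not given in the sources used here. All 16 samples are lanes, 4 for each of 4 libraries (1 index per condition), and were summed. In unique reads, lanes differed by no more than sampling noise (chi-square per degree of freedom 0.992 to 1.01; total reads 1.24 to 1.32). CPM used total exon reads. Calls needed 1.2-fold after adding 1 CPM, and 5 CPM in the higher library; outside exons, 0.1 CPM was added and at least 50 reads were required over the libraries. Printed folds are of CPM with nothing added. Named genes were, per role, the highest per kb and the 2 largest ratios to control, those with fewer unique reads, and of the wider list the 4 largest ratios each way; further members were named after their values were seen. Members and lists were chosen with earlier results of these data known. Alternatives were TMM (edgeR 4.0.16), DESeq2 1.42.0 size factors, adding 0.1 or 5 CPM, a floor of 20 CPM, 1 CPM or none, unique reads, total gene reads, left-out lanes and lane blocks; those on overlaps and on read minima outside exons, and left-out lanes there, were added after seeing the data. Python 3.11.15 with pandas 2.3.3 and scipy 1.17.1 was used, and ratios were checked on simulated counts.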

Additional observations from a re-analysis of the deposited data

How the results depend on the processing

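Depth limits the reads outside exons more than exon reads, and with 1 library per condition no spread between cultures is known. The median outside exons at 5 h against control (0.01) turned negative under 4 alternatives: scaled by all reads outside exons (-0.12), without overlapped genes (-0.0036), and without lane 3 (-0.011) or lane 4 (-0.014). The other medians kept their sign. Of 3150 exon ratios of single genes under alternatives, 3132 lay inside the counting interval of the reported ratio. That count was partly fixed in advance. The floor settings leave a ratio unchanged, and settings with a lane left out share most of their reads with the main one. In total gene reads, 213 ratios lay inside and 12 outside. The sign turned in 61 of the 3150, and 0 of these were past 1.2-fold as reported. The count of genes 1.2-fold lower at 1.5 h than in the control (8) was 5 with TMM factors. From 0.5 to 1.5 h the lower count (5) was 3 with TMM factors and 3 with DESeq2 size factors. From 1.5 to 5 h the lower count (1) was 2 with TMM factors, DESeq2 size factors, 0.1 CPM added, unique exon reads or the replicate block. In total gene reads the higher count was 4 from 1.5 to 5 h (main value 1) and 0 at 5 h against control (1), and the median at 0.5 h was -0.035. Scaled by all reads outside exons, the median outside exons was 0.19 from 1.5 to 5 h, and the lower counts were 9 at 5 h against control, 14 from 0.5 to 1.5 h and 2 from 1.5 to 5 h. The cause of these shifts was not tested. With 1 lane left out of every library, the lower count ranged from 3 to 5 between 0.5 and 1.5 h and from 1 to 3 between 1.5 and 5 h. The higher count ranged from 1 to 2 between 1.5 and 5 h and from 0 to 1 at 5 h against control. Outside exons, the lower count ranged from 1 to 3 between 1.5 and 5 h and from 2 to 5 at 5 h against control, and the number below 0 between 1.5 and 5 h ranged from 3 to 7. Lane numbers do not pair libraries: correlations of deviations were -0.05 to 0.05 for the same number and -0.07 to 0.06 for different numbers. With lanes as a replicate block, 1 count moved, as given above.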
